A study of Mus musculus with 12 samples.

Results

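The integrated stress response genes described here are Atf4 and 9 genes of the programme it runs: Atf5, Ddit3, Trib3, Asns, Psat1, Phgdh, Sesn2, Slc7a11 and Mthfd2. They were chosen by symbol, with earlier results of these data known. All 10 have a row in the deposited table of 45664 rows, and all 10 passed the filter on low counts that 20691 genes passed. Their RNA was read in whole hearts of mouse embryos, 1 library per embryo, in 4 groups of 3. Hearts are named below by group and by the replicate number of the labels. The groups were wild-type (WT) hearts at embryonic stage E13.5, hearts with a disruption of Ino80 (KO) at E13.5, and WT and KO hearts at E14.5. Ino80 encodes the ATPase of the chromatin remodeller INO80, and the labels describe its disruption as endothelial, using Tie2. The Tie2 promoter is active in endothelium and also in blood-forming cells, and a whole heart holds many cells outside that lineage. The strain, the Ino80 alleles, whether WT embryos carried a Tie2 transgene, and the deleted part of the gene are given in no source used here. All 6 E13.5 embryos were of litter 1; E14.5 WT hearts 8 and 7 and KO hearts 2 and 4 were of litter 2, and WT heart 7.2 and KO heart 1 of litter 3.

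The integrated stress response begins with kinases that phosphorylate the translation initiation factor eIF2 when amino acids run short, unfolded protein builds up in the endoplasmic reticulum, haem is lacking, or double-stranded RNA is present. General translation then falls, while the mRNA of the transcription factor ATF4 is translated more. ATF4 induces genes for amino acid synthesis and uptake, for redox defence and, with the factor CHOP (encoded by Ddit3), for cell death. Because ATF4 is controlled largely in translation, the level of its mRNA says little on its own, and its target genes are the usual readout in RNA.

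ATF4 and its C/EBP partners are known to bind a composite element whose core can be written TGATGNAA, or TTNCATCA on the other strand. Promoter windows from RefSeq (GRCm38.p6, 250 bases before to 50 bases after each annotated start) were found for all 10 genes, and 3 of the 10, Trib3, Asns and Slc7a11, held these letters on one strand or the other. Of 27025 symbols with a window, 4.51% held them. The 4 matches are shown 5′ to 3′ on the strand of the gene, within 30 bases, with the matching letters in capitals.
Trib3, chr2:152344028-152344057, minus strand: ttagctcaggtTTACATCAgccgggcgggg
Asns, chr6:7693214-7693243, minus strand: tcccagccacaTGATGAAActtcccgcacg
Slc7a11 first match, chr3:50443661-50443690, minus strand: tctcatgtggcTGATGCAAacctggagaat
Slc7a11 second match, chr3:50443642-50443671, minus strand: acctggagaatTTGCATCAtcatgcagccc
The Trib3 match lies 15 to 22 bases into the RefSeq transcript but 7 bases before the GENCODE start of the gene. The Asns match lies 23 to 16 bases before the RefSeq start and inside the GENCODE gene, and the Slc7a11 matches lie 66 to 59 and 47 to 40 bases before the start. A match is a description of the letters and not a measured binding site. These letters were chosen among 3 spellings after their matches were seen: TGATGCAA alone is held by 1 of the 10 genes, Slc7a11, and by 1.03% of symbols. The 250 bases before the RefSeq start of Trib3, the gene with the largest difference between KO and WT among the 10, hold no match to these letters.
Trib3 upstream, chr2:152344061-152344310, minus strand: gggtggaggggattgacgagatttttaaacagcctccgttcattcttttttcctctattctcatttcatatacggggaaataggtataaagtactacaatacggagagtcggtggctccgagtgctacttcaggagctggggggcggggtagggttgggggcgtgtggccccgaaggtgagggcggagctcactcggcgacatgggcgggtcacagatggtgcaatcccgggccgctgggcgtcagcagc

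Libraries held 46556032 to 182545647 counts. Ino80 read 36.6, 33.8 and 30.7 CPM (counts scaled to library size) in E13.5 WT hearts 1, 4 and 2, and 29.6 CPM in each of KO hearts 3, 5 and 7. Its E14.5 levels were 33.9, 31.4 and 30.8 CPM in WT hearts 8, 7 and 7.2, and 27.0, 29.5 and 31.9 CPM in KO hearts 2, 4 and 1. WT and KO were apart at E13.5 and overlapped at E14.5, and the log2 fold change averaged over the stages was -0.15 ± 0.06 (standard error (SE), adjusted p = 0.22, edgeR's quasi-likelihood test). Counts are summed per gene, so they do not check the deleted part. Cardiomyocyte markers (7 genes) summed to between 17250 and 23550 CPM in all 12 hearts. Of these 7 genes, 1 was above 0 in KO against WT at E13.5 (median log2 fold change -0.05), 0 at E14.5 (-0.18) and 1 averaged (-0.11). None of the 7 passed the test averaged, where 1.42% of all genes did. Averaged, 3 of 4 neural markers were above 0 (median 0.82), and 0 of 3 tested skeletal muscle markers (-0.15). Endothelial markers (6 genes) summed to 804 to 875 CPM in WT and 759 to 787 CPM in KO hearts at E13.5, apart, and to 722 to 869 and 840 to 903 CPM at E14.5, overlapping. Of these 6 genes 1 fell by the same test, Pecam1, an endothelial adhesion molecule named here after its values were seen. Pecam1 lay at 134 to 150 CPM in WT and 90.6 to 94.5 CPM in KO hearts at E13.5 (log2 -0.62 ± 0.08, adjusted p = 0.00809, and -0.47 ± 0.05, 0.000785, averaged). The 6 genes did not share a direction: 2 were above 0 at E13.5 (median -0.07), 5 at E14.5 (0.21) and 4 averaged (0.07). Emcn, for example, lay at 64.5 to 76.4 CPM in WT and 76.3 to 88.5 CPM in KO hearts at E13.5. Liver markers (5 genes) stayed between 0.335 and 3.60 CPM, with E13.5 KO hearts (0.415 to 0.654 CPM) above E13.5 WT hearts (0.335 to 0.401 CPM), and lung markers (3 genes) between 0.0325 and 0.522 CPM. Macrophage and leukocyte markers (12 genes) summed to 90.4 to 98.8 CPM in E13.5 WT hearts and to 33.0, 12.99 and 64.0 CPM in KO hearts 3, 5 and 7, so that every KO heart of that stage lay below every WT heart. At E14.5 they summed to 75.6 to 83.6 CPM in WT hearts and to 22.3, 107 and 92.0 CPM in KO hearts 2, 4 and 1, which overlapped. At E13.5 0 of the 12 genes were above 0 and 0 passed the test (median log2 fold change -1.665). In that test 6 of the 12 had an unadjusted p under 0.05, as had 2137 of all 20691 genes tested. At E14.5 5 were above 0 (median -0.10). Erythroid markers (8 genes) summed to 41920 CPM in E14.5 KO heart 1 and to between 4785 and 18410 CPM in the others. In whole hearts, fewer cells of a type and less RNA per cell cannot be told apart.

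Levels of the 10 genes are compared with one another as CPM per kilobase of annotated exon, over all 12 hearts. Atf4 stood highest at 39.4 ± 2.496 (standard deviation (SD), n = 12), followed by Psat1 at 21.2 ± 2.40 and Phgdh at 12.9 ± 2.75. Next came Atf5 at 8.56, Mthfd2 at 7.96, Slc7a11 at 5.25, Asns at 5.21, Ddit3 at 4.73 and Sesn2 at 4.41, and Trib3 was lowest at 1.34 ± 0.495. The ranges over the 12 hearts did not overlap between Atf4 and Psat1, between Psat1 and Phgdh, or between Sesn2 and Trib3. From Phgdh down to Sesn2, the range of each gene overlapped that of the next, so the order of these neighbours is not separated by the spread between hearts.

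Among the regulators of the response, 1 of 4 passed the test between KO and WT hearts averaged over the stages. Of all genes tested, 1.42% passed it. Trib3, a pseudokinase that ATF4 and CHOP induce and that restrains ATF4 in return, rose in KO hearts (chromosome 2, 152337422 to 152344032, GRCm38, GENCODE M21). E13.5 levels were 1.87, 2.56 and 1.65 CPM for WT hearts 1, 4 and 2, and 2.83, 3.30 and 3.53 CPM in KO hearts 3, 5 and 7. E14.5 levels were 2.09, 1.94 and 2.05 CPM for WT hearts 8, 7 and 7.2, and 5.32, 3.33 and 3.66 CPM in KO hearts 2, 4 and 1. Every one of the 6 KO hearts lay above every one of the 6 WT hearts, and E14.5 KO heart 2 was the highest. Over all genes tested, 0.744% separated the 6 KO from the 6 WT hearts in this direction. Averaged over the stages the log2 fold change was 0.84 ± 0.15 (SE), a ratio of 1.79, with an adjusted p of 0.0161 (edgeR's quasi-likelihood test, Benjamini-Hochberg over 20691 genes). Group means were 2.03 ± 0.474 in WT and 3.22 ± 0.36 CPM in KO at E13.5 (SD, n = 3), and 2.03 ± 0.0776 and 4.10 ± 1.07 CPM at E14.5. Neither stage passed alone: Trib3 had a log2 fold change of 0.67 ± 0.21 at E13.5 (adjusted p = 0.312) and 1.02 ± 0.22 at E14.5 (adjusted p = 0.0825). DESeq2 called Trib3 at E14.5 as well (adjusted p = 0.00186). The averaged call held without any 1 library, with adjusted p between 0.0147 and 0.0479. It was lost without both E13.5 KO heart 5 and E14.5 KO heart 2 (0.72, adjusted p = 0.0905). Trib3 lies 32.9 Mb from Ino80 on the same chromosome. Srxn1, of the NRF2 list described below, lies 32.6 Mb from Ino80, on the same side as Trib3. Srxn1 spanned 7.24 to 8.26 CPM in WT and 9.67 to 10.7 CPM in KO hearts at E13.5. At E14.5 it spanned 7.001 to 8.84 CPM in WT and 9.21 to 12.5 CPM in KO hearts. Each of its KO hearts thus exceeded each of its WT hearts, and it did not pass the test averaged. Eif2s2, 35.4 Mb from Ino80, overlapped at both stages. Whether this region of the chromosome plays a part was not tested.

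**Figure D1:**
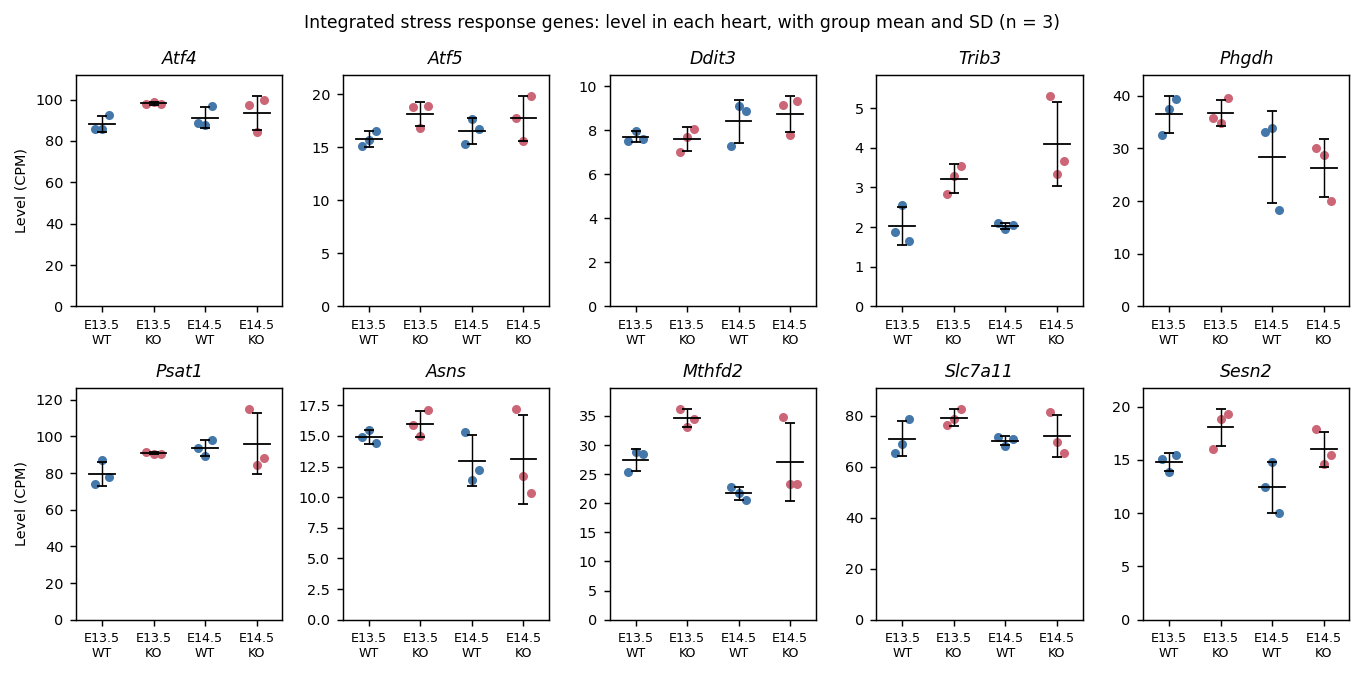
Each panel plots 1 gene, with its level in CPM on a linear axis from 0 and the 4 groups side by side; points are hearts (blue WT, red KO), and the bar with whiskers is the mean and SD of 3 hearts. Trib3 is the gene whose 6 KO hearts (2.83 to 5.32 CPM) all lie above its 6 WT hearts (1.65 to 2.56 CPM).

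Atf4, the central transcription factor (chromosome 15, 80255184 to 80257541), did not pass the test in any comparison. At E13.5 it read 85.8, 86.0 and 92.7 CPM in WT hearts 1, 4 and 2, and 97.7, 99.0 and 98.0 CPM in KO hearts 3, 5 and 7. At the later stage it read 88.8, 87.9 and 96.9 CPM in WT hearts 8, 7 and 7.2, and 97.2, 84.2 and 99.6 CPM in KO hearts 2, 4 and 1. The groups were apart at E13.5, by a small margin, and overlapped at E14.5, where KO heart 4 was the lowest of all 12 hearts and KO heart 1 the highest. Log2 fold changes were 0.16 ± 0.07 at E13.5 (adjusted p = 0.465) and 0.04 ± 0.07 at E14.5 (0.951). Averaged, it was 0.10 ± 0.05 (0.383), with a 95% confidence interval from -0.01 to 0.20.

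Atf5, a related factor that is also translated under eIF2 phosphorylation (chromosome 7, 44812256 to 44816658), followed the same outline. Its level was 15.1, 15.7 and 16.6 CPM in E13.5 WT hearts 1, 4 and 2, against 18.8, 16.9 and 18.9 CPM in KO hearts 3, 5 and 7. At E14.5 WT hearts spanned 15.3 to 17.7 CPM and KO hearts 15.6 to 19.9 CPM. The groups were apart at E13.5 and overlapped at E14.5, and the averaged log2 fold change was 0.15 ± 0.07 (adjusted p = 0.33). The gene overlaps Nup62 and Il4i1 on the opposite strand, and no source used here says whether counting used strand, so reads of these genes may be mixed.

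Ddit3, which encodes CHOP, the factor tied to cell death under prolonged stress (chromosome 10, 127290774 to 127296288), showed the smallest difference of the 10 genes in the averaged comparison. WT hearts spanned 7.52 to 7.98 CPM at E13.5 and 7.28 to 9.09 CPM at E14.5, and KO hearts 6.997 to 8.07 and 7.79 to 9.31 CPM. WT and KO overlapped at both stages. The averaged log2 fold change was 0.02 ± 0.08 (adjusted p = 0.947), with a 95% confidence interval from -0.16 to 0.19, so a change of the size of that of Trib3 lies outside it. Ddit3 overlaps Mars on the opposite strand, and the annotation holds a second record of the same symbol, so its count is uncertain.

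The enzymes came next. Mthfd2, a mitochondrial enzyme of the folate cycle that passes on carbon from serine (chromosome 6, 83305691 to 83325908), lay higher in KO hearts at both stages without passing the test over all genes. E13.5 levels were 25.3, 28.8 and 28.4 CPM for WT hearts 1, 4 and 2, and 36.2, 33.1 and 34.6 CPM in KO hearts 3, 5 and 7. E14.5 levels were 22.9, 21.7 and 20.6 CPM for WT hearts 8, 7 and 7.2, and 34.9, 23.3 and 23.3 CPM in KO hearts 2, 4 and 1. KO and WT did not overlap at either stage, but at E14.5 the gap rested mainly on KO heart 2, with the other 2 KO hearts just above the highest WT heart. The averaged log2 fold change was 0.33 ± 0.09 (adjusted p = 0.108), and DESeq2 called it (adjusted p = 0.0285). Without E14.5 KO heart 2 it was 0.22 (adjusted p = 0.103), and without E14.5 KO heart 1 it was 0.38 (0.0522).

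Phgdh and Psat1 carry out the first and second steps of serine synthesis, and neither passed the test. Psat1 (chromosome 19, 15904678 to 15947337) read 74.1, 86.9 and 77.9 CPM in E13.5 WT hearts 1, 4 and 2, against 91.7, 90.6 and 90.5 CPM in KO hearts 3, 5 and 7. The E14.5 hearts gave 93.5, 89.3 and 98.0 CPM in WT hearts 8, 7 and 7.2, and 115, 84.6 and 88.2 CPM in KO hearts 2, 4 and 1. The 3 KO hearts lay above the WT hearts at E13.5, while at E14.5 KO heart 2 was above and the other KO hearts were below all WT hearts. The averaged log2 fold change was 0.11 ± 0.07 (adjusted p = 0.483), and at E14.5 it went from 0.04 to -0.12 without KO heart 2. Phgdh (chromosome 3, 98313170 to 98339990) spanned 32.5 to 39.4 CPM in WT and 34.8 to 39.5 CPM in KO hearts at E13.5. At E14.5 it read 33.1, 33.8 and 18.2 CPM in WT hearts 8, 7 and 7.2, and 30.2, 28.8 and 19.96 CPM in KO hearts 2, 4 and 1. WT and KO overlapped at both stages, and the low hearts at E14.5 were the WT and the KO heart of litter 3. The averaged log2 fold change was -0.05 ± 0.15 (adjusted p = 0.914), with a 95% confidence interval from -0.39 to 0.29. Without litter 3 it was -0.08 (0.542).

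Asns, asparagine synthetase and a standard ATF4 target (chromosome 6, 7675169 to 7693254), read 14.9, 15.5 and 14.4 CPM in E13.5 WT hearts 1, 4 and 2, against 15.9, 15.0 and 17.1 CPM in KO hearts 3, 5 and 7. Its E14.5 levels were 15.3, 11.4 and 12.2 CPM in WT hearts 8, 7 and 7.2, and 17.2, 11.7 and 10.3 CPM in KO hearts 2, 4 and 1. The groups overlapped at both stages, and E14.5 KO hearts held both the highest and the lowest value of all 12. The averaged log2 fold change was 0.06 ± 0.11 (adjusted p = 0.859), and it was -0.07 without E14.5 KO heart 2. The promoter window of Asns holds the ATF4-type letters shown above, and its RNA did not pass the test.

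The last pair are a stress sensor and a transporter. Sesn2, a leucine-binding inhibitor of mTORC1 that both ATF4 and p53 induce (chromosome 4, 132492032 to 132510501), was the third highest of the 10 genes by averaged fold change. At E13.5 it read 15.05, 13.9 and 15.5 CPM in WT hearts 1, 4 and 2, and 16.1, 18.8 and 19.3 CPM in KO hearts 3, 5 and 7. At the later stage it read 12.5, 14.8 and 10.04 CPM in WT hearts 8, 7 and 7.2, and 17.9, 14.7 and 15.5 CPM in KO hearts 2, 4 and 1. The groups were apart at E13.5, and at E14.5 only WT heart 7 reached into the KO range. The averaged log2 fold change was 0.32 ± 0.09 (adjusted p = 0.107), and DESeq2 called it (adjusted p = 0.0303). Slc7a11, the cystine and glutamate exchanger that feeds glutathione synthesis and is also an NRF2 target (chromosome 3, 49892526 to 50443614), spanned 65.5 to 78.5 CPM in WT and 76.2 to 82.6 CPM in KO hearts at E13.5. At E14.5 it spanned 68.0 to 71.4 CPM in WT and 65.2 to 81.2 CPM in KO hearts. WT and KO overlapped at both stages, and the averaged log2 fold change was 0.10 ± 0.06 (adjusted p = 0.473). At E14.5 it went from 0.04 to -0.06 without KO heart 2. This gene holds 2 matches to the ATF4-type letters in its promoter window.

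Counted together, 1 of the 10 genes, Trib3, passed the test in the comparison averaged over the stages, where 1.42% of all genes tested passed (0.831% upward). The log2 fold change was above 0 in 9 of 10, and in 10206 of the 20691 genes tested. Its median was 0.11, against -0.00216 over all genes tested. In edgeR's test 4 of the 10 had an unadjusted p under 0.05, as had 3046 of the 20691. DESeq2 called 3, Trib3, Mthfd2 and Sesn2, and 926 of the 20691. At E13.5 edgeR called 0 of 10 where 0.106% of all genes passed, and DESeq2 called 0. In edgeR's test 4 of the 10 had an unadjusted p under 0.05 at E13.5, as had 2137 of the 20691. In 6 of the 10 (Atf4, Atf5, Trib3, Psat1, Sesn2 and Mthfd2) all KO hearts lay above all WT hearts at that stage, as did 8.44% of all genes. Among the lists described below, the same held for 8 of 18 genes of the IRE1, XBP1 and ATF6 branch. It held for 4 of 10 genes of eIF2, eIF2B and the eIF2 phosphatase, and for 6 of 20 tRNA synthetases. It also held for 2 of 4 secreted signals, 4 of 19 amino acid synthesis and one-carbon genes and 2 of 12 amino acid transporters. In the mitochondrial list it held for 2 of 10, among NRF2 pathway genes for 1 of 12 and among relatives of the 10 for 1 of 8. It held for 0 of 4 eIF2 kinases and 0 of 10 partner factors. The reverse at E13.5, with the KO range wholly under the WT range, held for 0 of the 10 and for 2312 of the 20691. It was seen in 1 of 4 kinases, Eif2ak4, and in 2 of 10 partner factors, Chac1 and Nupr1. It was also seen in 3 of 8 relatives, 2 of 12 transporters and 1 gene each of the synthesis, IRE1 and mitochondrial lists. The median log2 fold change of the 10 was 0.18, against 0.00181 over all genes. At this same stage the macrophage and leukocyte sum and the endothelial sum were lower in all KO than in all WT hearts. Of the 6 endothelial genes 1 passed, Pecam1, and 2 were above 0 at E13.5. The part of either sum in these levels was not tested. At E14.5 edgeR called 0 of 10 where 0.222% of all genes passed, and DESeq2 called 1, Trib3. In edgeR's test 3 of the 10 had an unadjusted p under 0.05 at E14.5, as had 1985 of the 20691. Here 2 of the 10 (Trib3 and Mthfd2) had all KO hearts above all WT hearts, as did 6.81% of all genes, and the median was 0.05 against -0.00707. The averaged comparison shares its hearts with both stages, so these counts are not independent. With litter as a replicate block more genes were called over the whole table, 60 against 22 at E13.5 and 92 against 46 at E14.5, and the counts of the 10 did not change. All E13.5 hearts were of the same litter, so the block adjusts nothing at E13.5. The count there moved only through the spread shared by all libraries.

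**Figure D2:**
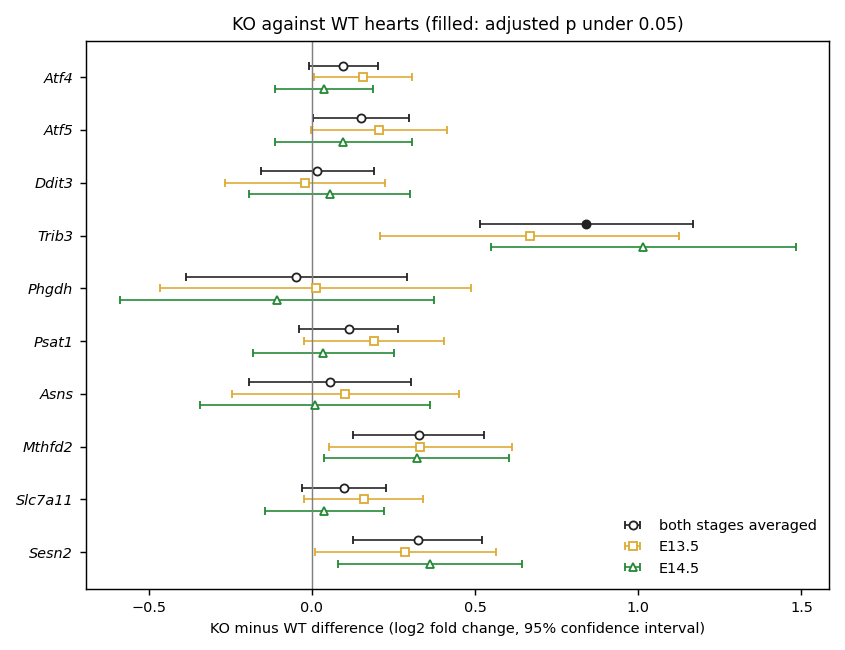
The log2 fold change of KO against WT is on the horizontal axis with its 95% confidence interval, for each gene averaged over both stages (circles), at E13.5 (squares) and at E14.5 (triangles); filled symbols passed an adjusted p of 0.05. Trib3 averaged over the stages (0.84) is the single filled symbol. The averaged intervals of Mthfd2 and Sesn2 (0.33 and 0.32) and, narrowly, of Atf5 also lie above 0. Those of Atf4, Ddit3, Phgdh, Psat1, Asns and Slc7a11 lie on both sides of 0.

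Whether the KO effect differed between the stages was tested by the interaction, in which the E13.5 effect is subtracted from the E14.5 effect. EdgeR called 0 of the 10 genes, and DESeq2 called 0. In edgeR's test 0 of the 10 had an unadjusted p under 0.05, as against 746 of all 20691 genes. Over all genes edgeR also called 0 (0%) and DESeq2 2. Trib3 had the largest interaction of the 10 (log2 0.35 ± 0.30, adjusted p = 0.997), and its 95% confidence interval ran from -0.30 to 1.00. Mthfd2 had the smallest, -0.01 ± 0.18 (0.998).

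Hearts of the same group differed from one another across several of the 10 genes at once. E14.5 KO heart 2 was the highest KO heart of its stage for 7 of 10 genes and the lowest for none. The mean of the 10 centred log2 levels was 0.26 there, the highest of the 12 hearts, against -0.08 in KO heart 4 and -0.05 in KO heart 1. At E13.5 KO heart 7 was the highest of its group for 7 of 10, and the 3 KO hearts had means of 0.11, 0.13 and 0.21. WT hearts of both stages together had means between -0.21 and -0.01, a range that held E14.5 KO hearts 4 and 1. Within E14.5 both lay above the WT hearts, by a small margin, with means of -0.100, -0.095 and -0.209 in WT hearts 8, 7 and 7.2. That order rests on Trib3, which is part of the mean. Its log2 CPM was 1.74 and 1.88 in KO hearts 4 and 1, and 1.08, 0.974 and 1.05 in WT hearts 8, 7 and 7.2. Over the other genes, KO hearts 4 and 1 did not lie above WT hearts 8 and 7. E14.5 KO heart 1, the heart with the highest erythroid markers, was the highest of all 12 for Atf4, Atf5 and Ddit3 and the lowest for Asns and Slc7a11. In E14.5 KO heart 2, macrophage and leukocyte markers stood at 22.3 CPM. Its erythroid markers stood at 4785 CPM, the lowest erythroid sum of the 12 hearts. The part of either marker list in these levels was not tested.

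Over the 12 hearts, the 45 pairs among the 10 genes had a median Pearson r of 0.42, with a range from -0.59 to 0.78, as a description of libraries that share litters and scaling. After the group means were taken out the median was 0.30 and 37 of 45 pairs were above 0. Mthfd2 followed the mean of the other 9 genes most closely (r = 0.86), then Sesn2 (0.76) and Slc7a11 (0.75). Trib3 stood at 0.53, Phgdh at 0.22 and Ddit3 at -0.10. The genes outside the 10 whose level followed the mean of the 10 most closely over the 12 hearts, among 10803 genes averaging 5 CPM or more, were Cdca4 (r = 0.95), Carhsp1 (0.95), Slc19a2 (0.91), Impdh2 (0.91), the pseudogene Pgam1-ps1 (0.90) and Tyms (0.90). Cdca4 is a regulator of cell proliferation, Carhsp1 an RNA-binding protein, Slc19a2 a thiamine transporter, Impdh2 an enzyme of guanine nucleotide synthesis and Tyms thymidylate synthase. Of these, Pgam1-ps1 passed the averaged KO comparison (0.23 ± 0.05, adjusted p = 0.0337), and reads of a pseudogene can belong to its parent gene.

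**Figure D3:**
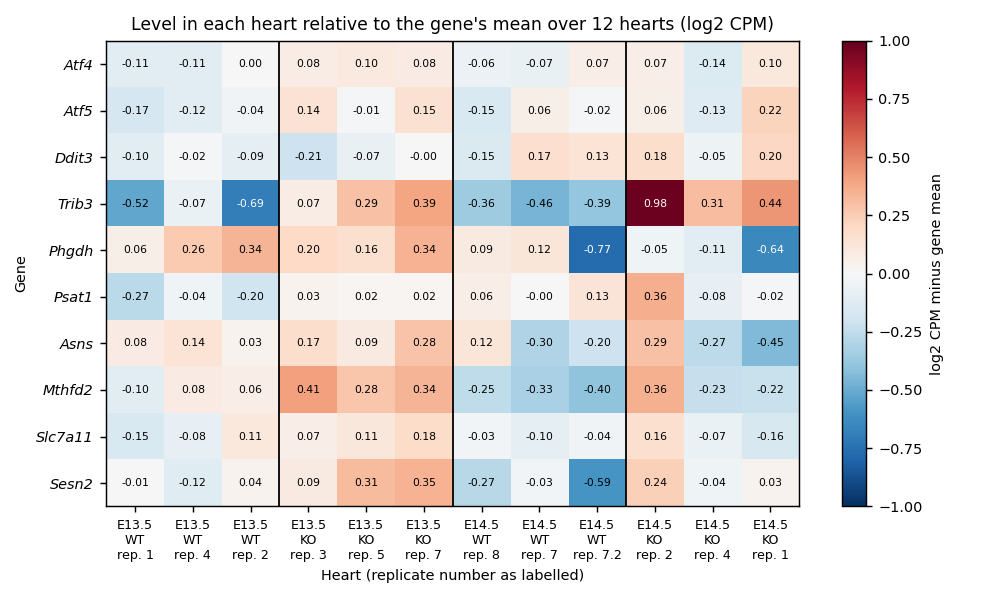
Rows are the 10 genes and columns the 12 hearts; each cell gives log2 CPM minus the mean of that gene over all hearts, red above and blue below. Trib3 is red in all 6 KO columns, Phgdh is lowest in the WT and KO hearts of litter 3 (E14.5 WT heart 7.2 and KO heart 1), and E14.5 KO heart 2 is above the mean for 9 genes.

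From E13.5 to E14.5, none of the 10 genes passed in WT or in KO hearts. EdgeR called 0 of 10 in WT where 4.04% of all genes passed, and 0 of 10 in KO where 3.74% passed. DESeq2 called 0 in each. In edgeR's test 2 of the 10 in each had an unadjusted p under 0.05. Over all 20691 genes, 4701 had one in WT and 4166 in KO. With litter as a replicate block 299 genes passed in WT, against 836, and 332 in KO, against 774. The block only separates litter 3 from litter 2, so these fits set litter 2 against litter 1. Stage is confounded with litter, so the effects of the 2 cannot be told apart. Mthfd2 was lower at E14.5 in both genotypes, with log2 values of -0.34 ± 0.13 in WT (adjusted p = 0.148) and -0.35 ± 0.13 in KO (0.149). Without E14.5 KO heart 2, Mthfd2 passed in both (0.0286 in WT, through the shared spread, and 0.0101 in KO) and Asns passed in KO (0.0434). Phgdh had -0.36 ± 0.22 in WT (0.347) and -0.48 ± 0.22 in KO (0.246), and Psat1 had 0.23 ± 0.10 in WT (0.187).

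The other genes of the pathway were read from lists of sensors, partners, targets and neighbouring stress responses. Beside the counts of these lists, 0.831% of all genes tested rose and 0.585% fell in the averaged comparison. Among the 4 eIF2 kinases none passed in the averaged comparison, 3 were above 0 and the median was 0.105. Eif2ak2, the kinase for double-stranded RNA and itself an interferon-induced gene, lay at 30.5 ± 4.32 CPM in WT and 34.8 ± 3.91 CPM in KO hearts at E13.5, and at 26.9 ± 3.73 and 33.4 ± 6.98 CPM at E14.5 (log2 0.25 ± 0.11, adjusted p = 0.327). Eif2ak3, the kinase of the endoplasmic reticulum known as PERK, had a log2 fold change of 0.16 ± 0.07 (0.332). Of the 10 genes of eIF2, eIF2B and the eIF2 phosphatase, 1 rose, Ppp1r15a. It encodes GADD34, the stress-induced subunit that brings the phosphatase to eIF2. Its level was 26.3, 25.3 and 26.8 CPM in E13.5 WT hearts 1, 4 and 2, and 33.3, 31.9 and 35.3 CPM in KO hearts 3, 5 and 7. The E14.5 values were 27.8, 27.8 and 19.4 CPM in WT hearts 8, 7 and 7.2, and 42.2, 31.4 and 32.9 CPM in KO hearts 2, 4 and 1. All 6 KO hearts lay above all 6 WT hearts, and the log2 fold change was 0.43 ± 0.10 (adjusted p = 0.0436). This call was held in 4 of 12 fits with 1 library left out. It was lost without E13.5 WT heart 1 (0.108), 4 (0.121) or 2 (0.0826), KO heart 3 (0.0964), 5 (0.0867) or 7 (0.0980), E14.5 KO heart 2 (0.0889) or WT heart 7 (0.0529).

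Of 10 tested partner factors and feedback genes none passed (median 0.02). Cebpd, a C/EBP factor, had 0.27 ± 0.11 (adjusted p = 0.288) and Nupr1, a small stress-induced chromatin protein, -0.50 ± 0.26 (0.385). At E13.5 Chac1, of the same list, spanned 0.4102 to 0.465 CPM in WT and 0.0987 to 0.236 CPM in KO hearts. At E14.5 Chac1 spanned 0.224 to 0.534 CPM in WT and 0.357 to 0.546 CPM in KO hearts, overlapping. Chac1 lies 0.0187 Mb from Ino80, and the kinase gene Eif2ak4 lies 0.898 Mb from it. Whether that position plays a part was not tested. Of 4 tested secreted signals none passed, while all 4 were above 0 (median 0.55). Gdf15, a hormone released by stressed cells, lay between 0.747 and 0.993 CPM in the 6 WT hearts and between 0.862 and 2.55 CPM in the 6 KO hearts (0.84 ± 0.23, adjusted p = 0.0937). KO and WT were apart at each stage, with E14.5 KO heart 4 close to the WT hearts. DESeq2 called Gdf15 (0.0199), and so did edgeR without that heart (0.0171). Adm2, a peptide hormone, lay between 0.0187 and 0.248 CPM in WT and between 0.266 and 0.434 CPM in KO hearts (1.01 ± 0.35, adjusted p = 0.194).

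Amino acid synthesis and one-carbon genes did not share a direction: of 19 tested, 10 were above 0, 1 rose and 1 fell. Cth, cystathionine gamma-lyase, which makes cysteine, rose (0.90 ± 0.17, adjusted p = 0.0209). Its level was 0.685, 0.676 and 1.01 CPM in E13.5 WT hearts 1, 4 and 2 and 1.34, 1.80 and 1.70 CPM in KO hearts 3, 5 and 7. The E14.5 values were 0.598, 0.784 and 0.666 CPM in WT hearts 8, 7 and 7.2 and 1.21, 1.08 and 1.17 CPM in KO hearts 2, 4 and 1. As with Trib3 and Ppp1r15a, all 6 KO hearts lay above all 6 WT hearts. Aldh1l2, the mitochondrial enzyme that oxidises formyl-tetrahydrofolate and lies in the same pathway as Mthfd2, fell (-0.40 ± 0.07, adjusted p = 0.019), as did 0.585% of all genes tested. It read 60.8, 55.5 and 53.2 CPM in E13.5 WT hearts 1, 4 and 2 and 45.3, 44.9 and 42.6 CPM in KO hearts 3, 5 and 7. The E14.5 hearts gave 63.1, 75.8 and 68.8 CPM in WT hearts 8, 7 and 7.2 and 43.2, 59.9 and 50.5 CPM in KO hearts 2, 4 and 1. The groups were apart at each stage, on the opposite side from Mthfd2. Cth lost its call without E13.5 WT heart 1 (0.0579) or 4 (0.0724), KO heart 5 (0.0611) or 7 (0.0598), E14.5 KO heart 2 (0.0531), E14.5 WT heart 7.2 (0.0530) or litter 3 (0.0612). Aldh1l2 lost it without E13.5 WT heart 1 (0.0540) or 4 (0.0532), KO heart 5 (0.0502) or 7 (0.0539), E14.5 WT heart 7 (0.0526) or litter 3 (0.0637).

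Of 12 amino acid transporters 1 rose, Slc7a1, the cationic transporter for arginine and lysine, and 8 were above 0 (median 0.05). It lay at 67.4 ± 4.27 CPM in WT and 80.6 ± 5.22 CPM in KO hearts at E13.5, and at 57.6 ± 7.22 and 71.7 ± 2.28 CPM at E14.5 (0.29 ± 0.06, adjusted p = 0.0379). Of 20 cytosolic tRNA synthetases, which load amino acids onto tRNAs and include known ATF4 targets, 15 were above 0 (median 0.10) and 1 rose, Tars. Tars, which encodes threonyl-tRNA synthetase, lay at 55.8 ± 1.14 CPM in WT and 64.2 ± 0.535 CPM in KO hearts at E13.5, and 47.9 ± 1.48 and 53.1 ± 2.77 CPM at E14.5 (0.17 ± 0.04, adjusted p = 0.0491). Slc7a1 held its call without E14.5 WT heart 8, WT heart 7 or KO heart 1, and in the other 9 fits with 1 library left out adjusted p was between 0.0509 and 0.117. Tars held its call only without E14.5 KO heart 1, was between 0.0552 and 0.148 in the other 11 such fits, and also lost it with RLE scaling (0.0518) or with no filter on low counts (0.0884). Without litter 3 Slc7a1 (0.0589) and Tars (0.0528) both lost their calls.

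The neighbouring stress responses showed few calls. In the IRE1, XBP1 and ATF6 branch of the unfolded protein response, which induces chaperones of the endoplasmic reticulum, 0 of 18 passed and 14 were above 0 (median 0.06); Edem1 had 0.14 ± 0.06 (adjusted p = 0.32) and Calr 0.08 ± 0.05 (0.445). In the mitochondrial relay and protein quality control list 0 of 10 passed (median 0.01); Spg7 had -0.07 ± 0.05 (0.559) and Hspe1 0.08 ± 0.08 (0.688). Of 12 NRF2 pathway genes, which answer oxidative stress, 1 rose, and 9 were above 0 (median 0.08). That gene was Hmox1, haem oxygenase, at 14.9 ± 1.83 CPM in WT and 16.3 ± 1.80 CPM in KO hearts at E13.5, and 12.2 ± 0.781 and 20.4 ± 2.40 CPM at E14.5. WT and KO overlapped at E13.5 and were apart at E14.5. It passed averaged (0.44 ± 0.08, adjusted p = 0.0196) and at E14.5 (0.74 ± 0.12, 0.0241), while its interaction did not (0.61 ± 0.16, 0.997). The averaged call was lost without E13.5 WT heart 1 (0.0573), E13.5 KO heart 7 (0.0540), E14.5 KO heart 2 (0.0531) or litter 3 (0.0666). The E14.5 call was lost without E14.5 KO heart 2 (0.110), WT heart 7 (0.0657), WT heart 7.2 (0.114) or litter 3 (0.122), and with E14.5 libraries fitted alone (0.132). Without both E13.5 KO heart 5 and E14.5 KO heart 2 the averaged calls of Ppp1r15a, Cth, Aldh1l2, Slc7a1, Tars and Hmox1 were all lost, with adjusted p between 0.0751 and 0.21. Among relatives of the 10 genes (other sestrins, tribbles, ATF and C/EBP factors), 0 of 8 passed and 3 were above 0 (median -0.04). Trib1 had 0.24 ± 0.07 (0.0956), and Sesn3, a sestrin paralogue, -0.23 ± 0.07 (0.13), on the other side from Sesn2; without E14.5 KO heart 4 both passed (0.0487 and 0.0281), and DESeq2 called Trib1 (0.0287).

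**Figure D4:**
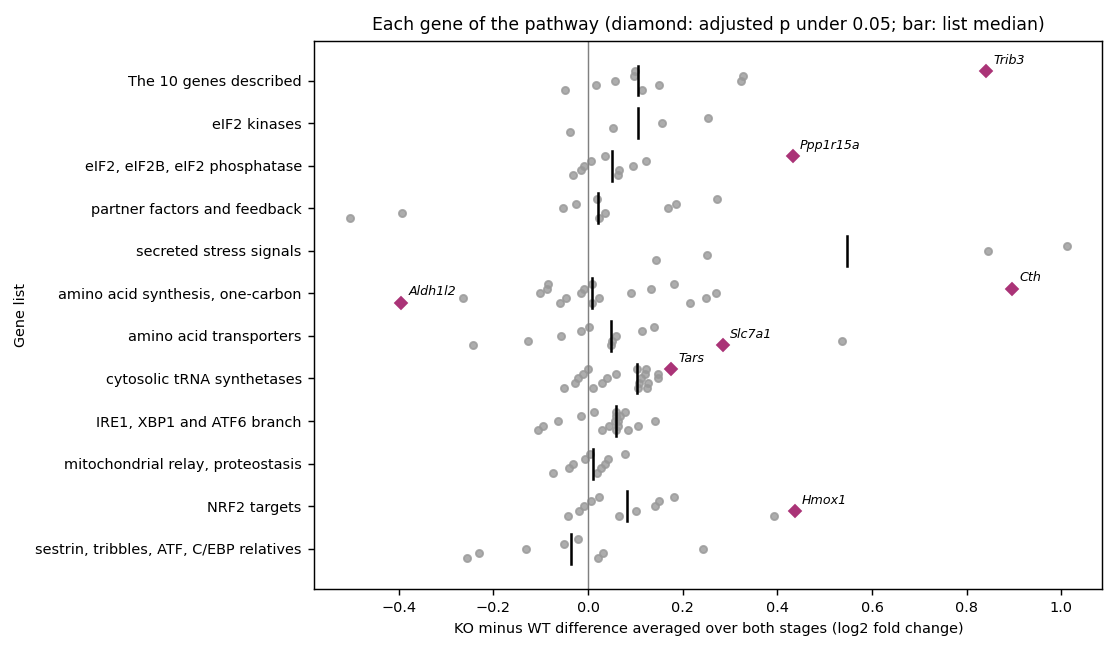
Each point is 1 gene, with its log2 fold change of KO against WT averaged over both stages on the horizontal axis and its list on the vertical axis; diamonds with names passed an adjusted p of 0.05 and the black bar is the median of the list. Of the passing genes, Aldh1l2 (-0.40) is the single one below 0.

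With stage, the tRNA synthetases lay mostly below 0 in both genotypes, 18 of 20 in WT (median -0.16) and 18 of 20 in KO (median -0.19). By edgeR's quasi-likelihood test 2 fell in WT, Tars (-0.22, adjusted p = 0.0478) and Vars (-0.43, 0.0429), where 1.96% of all genes fell. In KO 3 fell, Tars (-0.27, 0.0241), Aars (-0.36, 0.0215) and Mars (-0.27, 0.0486), where 1.63% of all genes fell. These names were chosen after their values were seen, and litter cannot be told apart from stage.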

How the data were processed

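RNA from 12 whole embryonic hearts was sequenced, 1 library per embryo. The authors deposited raw counts per gene; STAR 2.5.3a, featureCounts, DESeq, DESeq2 and GRCm38 are named in the submitters' processing notes, with no role or order, and no source used here gives strand, multimapping or annotation release. The 10 genes and all lists were chosen with earlier results of these data known, so their counts are no independent support. Genes were tested with edgeR 4.0.16 (R 4.3.3), TMM scaling, filterByExpr on the 4 groups and the quasi-likelihood test, all 12 libraries with 1 mean per group; p was adjusted by Benjamini-Hochberg over 20691 genes, with a threshold of 0.05. Robust moderation was chosen after both counts had been seen (293 genes called averaged over the stages, 322 without it). Levels are library-scaled CPM. SE is the log2 fold change divided by the root of F, and 95% intervals use the moderated degrees of freedom. The common biological coefficient of variation was 17.1%. No 2 libraries were copies: the lowest chi-square per degree of freedom over 66 pairs was 18.44. Each embryo is a replicate. Replicate numbers do not pair WT with KO. The labels give litters, which pair E14.5 hearts. Deviations from group means were correlated between E14.5 WT and E14.5 KO hearts. The mean r was 0.004 in 5 pairs of the same litter and -0.005 in 4 pairs of different litters. Deviations cancel within a group, so these means are not independent. Named genes of each other list were those past the threshold in a KO comparison (at most 4 per direction), or else the 2 with the smallest p; genes most like the 10 were ranked by Pearson r with their mean. Srxn1, Eif2s2, Chac1 and Eif2ak4 were named outside this rule, after their values and their distance to Ino80 were seen. Of the listed genes, Batf2 and Fgf21 were below the filter and Pycr3 and Dele1 matched no row under the symbols searched. Alternatives were DESeq2 1.42.0, RLE scaling, no filter on low counts, fits restricted to the 2 groups compared, a litter block, each library left out, 2 libraries that stood apart in earlier results left out together (replicate 5 of E13.5 KO, replicate 2 of E14.5 KO), litter 3 left out and no robust moderation. Scripts were tested on simulated data.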

Additional observations from a re-analysis of the deposited data

How the results depend on the processing

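For the 10 genes the count called averaged over the stages was 1 in each fit with 1 library left out, 3 with DESeq2 and 0 without both libraries that stood apart. At E14.5 DESeq2 called 1. For stage, 1 was called in WT and 1 in KO without both libraries that stood apart, and leaving out 1 library gave 0 to 1 in WT and 0 to 2 in KO. Over all genes DESeq2 called 926 averaged, 310 at E13.5, 348 at E14.5, 2 for the interaction, 2140 for stage in WT and 1822 for stage in KO. With litter as a replicate block the counts were 60 at E13.5, 92 at E14.5, 299 for stage in WT and 332 for stage in KO. The block only separates the litters of E14.5, so it does not adjust E13.5 or the difference between stages for litter. It changed no call of the 10 genes. No filter gave 40 at E13.5 and 77 at E14.5. Fitting only the libraries compared gave 95 at E13.5, 2 at E14.5 and 289 for stage in KO. Without both libraries that stood apart the counts were 63 averaged, 10 at E14.5, 474 for stage in WT and 130 for stage in KO. Without litter 3 they were 71 at E13.5 and 95 for stage in WT. Leaving out 1 library gave 125 to 483 averaged, 2 to 69 at E13.5, 10 to 107 at E14.5 (10 without E14.5 WT replicate 7.2, 13 without E14.5 KO replicate 2), 8 to 1081 for stage in WT (22 without E14.5 WT replicate 7.2) and 66 to 1076 for stage in KO (1076 without E14.5 WT replicate 7.2, and 912 without E14.5 KO replicate 4). Without robust moderation, an alternative chosen after seeing the data, the counts were 322 averaged, 16 at E13.5 and 50 at E14.5. The cause of these moves was not tested. Log2 fold changes that changed sign under an alternative were values that had not passed the test. Without both libraries that stood apart these were Ddit3 -0.00406 (averaged), Asns -0.0455 (averaged), Edem1 -0.0117 (E13.5), Asns -0.236 (E14.5), Psat1 -0.116 (E14.5), Slc7a11 -0.0582 (E14.5), Calr -0.0163 (E14.5), Spg7 0.0403 (E14.5), Psat1 -0.0775 (stage in KO). Without litter 3 these were Hspe1 0.0336 (E14.5), Asns 0.00646 (interaction), Sesn2 -0.0383 (interaction), Mthfd2 0.0467 (interaction), Atf4 -0.0012 (stage in WT). With the replicate block by litter these were Asns -0.00545 (E14.5), Trib3 0.0384 (stage in WT), Slc7a11 0.0152 (stage in WT). With no filter these were Mthfd2 0.0015 (interaction). In the restricted fits these were Trib3 0.00112 (stage in WT). Without E14.5 WT replicate 7.2 these were Asns -0.0305 (E14.5), Sesn2 -0.0527 (interaction). With 1 library left out, the values for averaged ranged for Ddit3 from -0.0297 to 0.0523, for Asns from -0.067 to 0.128, for Phgdh from -0.169 to 0.0341 (lowest -0.102 with E14.5 WT replicate 7.2 kept), for Hspe1 from -0.00317 to 0.116. With 1 library left out, the values for E13.5 ranged for Ddit3 from -0.0712 to 0.0278, for Phgdh from -0.0708 to 0.0656, for Edem1 from -0.0455 to 0.0894. With 1 library left out, the values for E14.5 ranged for Atf4 from -0.0091 to 0.108, for Ddit3 from -0.0382 to 0.131, for Asns from -0.236 to 0.154, for Psat1 from -0.116 to 0.118, for Phgdh from -0.344 to 0.0567 (lowest -0.216 with E14.5 WT replicate 7.2 kept), for Slc7a11 from -0.0579 to 0.104, for Calr from -0.016 to 0.0873, for Spg7 from -0.0800 to 0.0407 (lowest -0.0683 with E14.5 WT replicate 7.2 kept). With 1 library left out, the values for interaction ranged for Ddit3 from -0.0169 to 0.157, for Asns from -0.338 to 0.0524, for Phgdh from -0.350 to 0.0452 (lowest -0.228 with E14.5 WT replicate 7.2 kept), for Sesn2 from -0.0527 to 0.232 (lowest -0.01001 with E14.5 WT replicate 7.2 kept), for Mthfd2 from -0.233 to 0.0939. With 1 library left out, the values for stage in WT ranged for Trib3 from -0.13 to 0.192, for Slc7a11 from -0.0738 to 0.0537. With 1 library left out, the values for stage in KO ranged for Atf5 from -0.129 to 0.0448, for Psat1 from -0.0743 to 0.158.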
